A study of Mus musculus with 57 samples.

Results

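Nicotinamide adenine dinucleotide (NAD+) is the redox cofactor of mitochondrial energy metabolism and the substrate of sirtuins, PARPs and CD38, and 9 genes that encode enzymes of its synthesis were followed in mouse hearts after doxorubicin (Doxo), an anthracycline antineoplastic drug with known cardiotoxicity. They were chosen by symbol, and all 9 were found in both count tables, which hold 25416 genes (acute study) and 54658 genes (chronic study). All 9 passed the filter on low counts in both studies. In the acute study, male C57BL6/J mice aged 9 weeks on arrival received vehicle (Ctrl, n = 14), 1 intraperitoneal injection of 20 mg/kg Doxo (Doxo, n = 13), or that injection plus 180 mg/kg/day of intraperitoneal nicotinamide mononucleotide (NMN) begun 5 days ahead of it (Doxo-NMN, n = 13), and hearts were taken on day 5. In the chronic study, male C57BL6/J mice aged 14 to 16 weeks received vehicle (Ctrl, n = 5), 5 injections of 4 mg/kg Doxo, 20 mg/kg in all (Doxo, n = 6), or these plus 500 mg/kg/day of NMN in the drinking water, also begun 5 days ahead (Doxo-NMN, n = 6), and hearts were taken on day 60. All mice were wild type, no group received NMN without Doxo, and the study's methods describe 1 cohort of mice for each RNA-seq experiment. The studies differ in supplier, age, site, NMN route and sequencing laboratory, so levels were not tested between them. Hearts could be taken only from mice alive at collection. The paper reports lower survival with Doxo than in Ctrl, and higher survival with NMN than with Doxo alone, in both regimens. For NMN, that difference was significant in the acute regimen only. The groups compared are therefore groups of survivors, and the part of this selection in the differences was not tested.

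A heart cell can make NAD+ by several routes. In the salvage route, nicotinamide phosphoribosyltransferase (*Nampt*) converts nicotinamide into NMN and is the rate-limiting step. The nicotinamide riboside kinases (*Nmrk1* and the muscle-enriched *Nmrk2*) also form NMN, from nicotinamide riboside. The NMN adenylyl transferases (nuclear *Nmnat1*, mitochondrial *Nmnat3*) turn NMN into NAD+. In the Preiss-Handler route, *Naprt* starts from nicotinic acid, and NAD synthetase (*Nadsyn1*) amidates nicotinic acid adenine dinucleotide into NAD+. The NAD kinases (cytosolic *Nadk*, mitochondrial *Nadk2*) then phosphorylate NAD+ into NADP+.

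Total counts ranged from 32409622 to 52102850 per acute heart and from 17769886 to 23862287 per chronic heart, and a heart was the replicate throughout. Values are CPM, counts scaled to a common total over the tested genes after TMM normalization. A count of 3, taken as the floor, equalled 0.0550 to 0.105 CPM in the acute libraries (0.124 to 0.172 CPM in the chronic ones; counting error only), far below every value of the 9 genes, whose lowest count in any heart was 52. The hearts expressed the 5 cardiomyocyte markers at 26143 to 70648 CPM in sum, as the label heart calls for. Along a line from the mean Ctrl profile (0) to the mean Doxo profile (1) over all tested genes, the library labelled acute Doxo replicate 6 lay at 0.0544, among the Ctrl hearts (−0.0539 to 0.0649), and the other 12 Doxo hearts at 0.452 to 1.45. Chronic Ctrl replicate 1 (−0.332) and chronic Doxo replicate 2 (2.10) also stood apart. Each Ctrl or Doxo heart was part of the mean that set the line, so in the small chronic groups an atypical heart also pulls the line towards itself. These positions are therefore descriptive. In bulk hearts, fewer cells of a type and less RNA per cell cannot be told apart.

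The promoters of 4 genes are shown: *Nampt* and *Nmrk2*, which rose, and *Nmnat1* and *Nadsyn1*, which fell with acute Doxo. *Nadk2* also rose but matched no promoter entry, and *Nadk* also fell but is not shown. Each runs 5′ to 3′ on the gene's strand, from 250 bases before the RefSeq start site to 50 after it (RefSeq, build GRCm38.p6; 7 of the 9 genes matched an entry). Capitals mark matches, on either strand, to any of 6 motifs: an E-box (CACGTG), AP-1 (TGANTCA), CRE (TGACGTCA), an antioxidant response element core (TGACNNNGC), an ATF4 composite element (TGATGNAA) and a TATA box (TATAAA).
Nampt: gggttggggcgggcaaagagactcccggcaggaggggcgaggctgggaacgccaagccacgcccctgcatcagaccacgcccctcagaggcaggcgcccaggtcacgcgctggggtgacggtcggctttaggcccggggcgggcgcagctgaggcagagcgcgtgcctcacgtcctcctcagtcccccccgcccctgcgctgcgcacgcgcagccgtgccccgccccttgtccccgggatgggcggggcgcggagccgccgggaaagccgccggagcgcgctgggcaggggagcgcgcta
Nmrk2: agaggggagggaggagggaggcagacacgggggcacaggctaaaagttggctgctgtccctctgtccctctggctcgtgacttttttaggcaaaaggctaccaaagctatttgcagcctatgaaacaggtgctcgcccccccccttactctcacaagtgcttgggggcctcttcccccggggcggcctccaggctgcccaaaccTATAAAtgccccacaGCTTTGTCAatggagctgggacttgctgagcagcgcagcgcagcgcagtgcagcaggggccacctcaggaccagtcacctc
Nmnat1: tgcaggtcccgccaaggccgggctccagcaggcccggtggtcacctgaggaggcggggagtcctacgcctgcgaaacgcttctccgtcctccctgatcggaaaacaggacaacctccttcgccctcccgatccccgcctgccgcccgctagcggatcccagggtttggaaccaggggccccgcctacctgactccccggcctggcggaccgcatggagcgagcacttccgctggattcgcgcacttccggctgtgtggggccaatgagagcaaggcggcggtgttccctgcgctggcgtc
Nadsyn1: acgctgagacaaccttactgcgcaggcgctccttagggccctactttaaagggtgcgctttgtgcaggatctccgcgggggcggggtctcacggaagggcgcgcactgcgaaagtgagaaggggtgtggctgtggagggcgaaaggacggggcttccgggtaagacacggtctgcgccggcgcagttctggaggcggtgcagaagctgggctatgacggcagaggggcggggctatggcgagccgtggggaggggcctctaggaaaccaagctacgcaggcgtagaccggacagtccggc
They lie at chr12:32820085-32820384 on the plus strand (*Nampt*), and on the minus strand at chr10:81201988-81202287 (*Nmrk2*), chr4:149485161-149485460 (*Nmnat1*) and chr7:143822803-143823102 (*Nadsyn1*). The *Nmrk2* window held a TATA box starting 46 bases before the start site and an antioxidant response element core starting 31 bases before it, which do not overlap. The other 3 windows shown held none of the 6 motifs. Of the matched windows not shown, that of *Nmnat3* also held an antioxidant response element core, starting 20 bases after the start site. Those of *Nmrk1* and *Nadk* held none. Of 32851 RefSeq promoter windows, 13.6% held the TATA box letters, 12.4% the antioxidant response element core, 7.81% AP-1, 7.15% the E-box, 3.97% the ATF4 element and 1.79% the CRE. The *Nampt*, *Nmnat1*, *Nadsyn1* and *Nmrk2* windows were 76.3%, 69.0%, 65.7% and 60.7% G and C. Such matches describe letters and are not evidence of binding.

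Per kilobase of merged exon (GENCODE M21, GRCm38), *Nampt* was the most abundant of the 9 transcripts in acute Ctrl hearts, at 43.4 ± 5.96 CPM per kb (SD, n = 14). *Nadk2* (16.4 ± 1.07), *Nadk* (9.08 ± 0.520) and *Nmnat1* (7.57 ± 0.731) followed. *Nmrk2* (5.15 ± 1.34) and *Naprt* (4.93 ± 0.545) did not differ beyond their spread, and their means stood above *Nmnat3* (3.44 ± 0.332). *Nmrk2* hearts (3.22 or more) overlapped those of *Nmnat3* (up to 3.99), and *Naprt* hearts (4.14 or more) did not. *Nadsyn1* (1.29 ± 0.135) and *Nmrk1* (1.04 ± 0.128) were lowest, and their hearts overlapped. In Doxo hearts *Nmrk2* reached 19.8 ± 11.7 CPM per kb (n = 13), next to *Nadk2* at 21.4 ± 3.99, so that the order of the 9 transcripts differed from that in Ctrl. In chronic Ctrl hearts *Nampt* again led at 31.0 ± 8.17 CPM per kb (n = 5), before *Nadk* at 11.97 ± 0.877, and *Nmrk1* at 1.31 ± 0.308 was again lowest.

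The first comparison, acute Doxo vs. Ctrl, asked what 1 high dose did to these enzymes at day 5. Of the 9 genes, 3 rose (*Nampt*, *Nmrk2*, *Nadk2*), 3 fell (*Nmnat1*, *Nadsyn1*, *Nadk*) and 3 did not pass an adjusted p under 0.05 (edgeR quasi-likelihood F-test, adjusted over 14240 genes). This rule called 68.1% of all tested genes, so 6 of 9 is close to the background. With a fold change of at least 1.5 as well, 3 of the 9 passed (*Nampt*, *Nmrk2*, *Nmnat1*), against 30.1% of all genes. The median log2 fold change was 0.054 over the 9 genes and −0.0016 over all genes. Without Doxo replicate 6, 8 of the 9 passed: *Nmnat3* (log2 fold change 0.15, adjusted p = 0.0425) and *Naprt* (−0.18, adjusted p = 0.0376) came in addition, and the rule then called 70% of all genes. The plot of acute hearts shows each value.

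**Figure D1:**
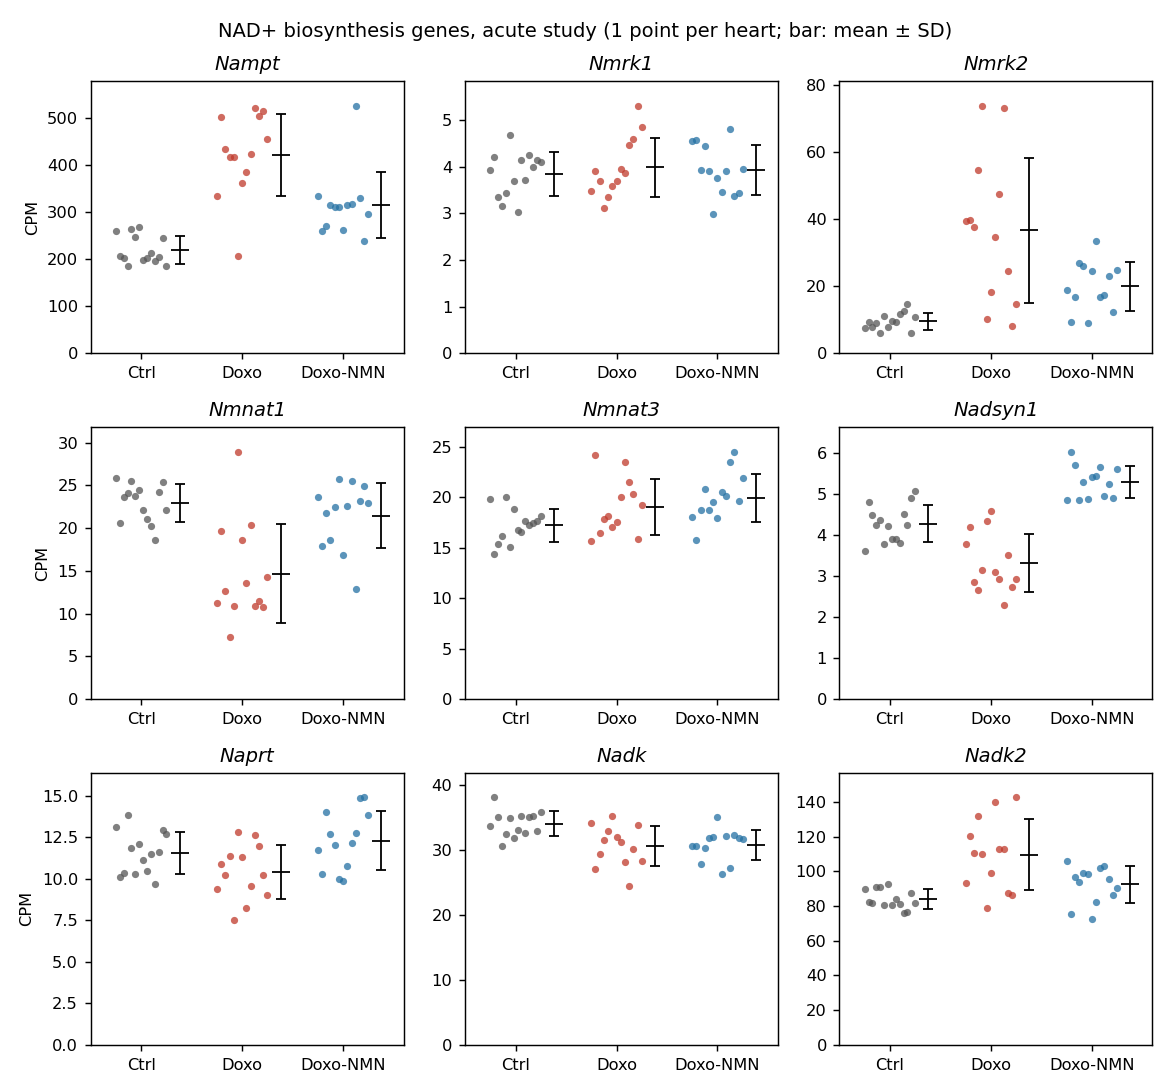
CPM of the 9 genes (linear axes from 0) in each acute heart, 1 point per heart in replicate order, with the group mean ± SD beside the points (Ctrl n = 14, Doxo n = 13, Doxo-NMN n = 13). Most Doxo points lie above Ctrl for *Nampt* and *Nmrk2* and below for *Nmnat1* and *Nadsyn1*, 1 Doxo heart (replicate 6, 206 CPM) lies among the Ctrl values of *Nampt*, and all 13 Doxo-NMN points of *Nadsyn1* lie above all Doxo points.

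Among the enzymes that make NMN, *Nampt* was measured at 184 CPM in the lowest Ctrl heart, 205 in the median and 268 in the highest, and in Doxo hearts at 206, 422 and 521. The lowest Doxo value was replicate 6, and the other 12 Doxo hearts (333 CPM or more) lay above all Ctrl hearts. Without that library, 14.2% of all tested genes also had groups that did not overlap. *Nampt* rose 1.92-fold (log2 0.94, SE 0.105, adjusted p = 1.59e-09), and the log2 fold change without replicate 6 was 0.998. The lincRNA gene *Gdap10*, which lies within the *Nampt* gene on the same strand but shares no exon base with it, rose 1.96-fold (adjusted p = 2.96e-06).

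*Nmrk2* was the most changed of the 9 and the most variable. Its Ctrl hearts ran from 5.98 through a median of 9.25 to 14.6 CPM, and its Doxo hearts from 8.14 through 37.6 to 73.7 CPM. Of the 13 Doxo hearts, 11 lay above all Ctrl hearts, and replicates 12 (8.14 CPM) and 6 (10.1 CPM) lay within the Ctrl range. The coefficient of variation was 59.1% in Doxo and 25.96% in Ctrl. *Nmrk2* rose 3.83-fold (log2 1.94, SE 0.254, adjusted p = 3.00e-08). Its sister kinase *Nmrk1* was at 3.84 ± 0.471 CPM in Ctrl and 3.99 ± 0.634 in Doxo hearts, a log2 difference of 0.054 (SE 0.0830, adjusted p = 0.573). The groups of *Nmrk1* overlapped almost completely, and the sign of its difference turned with upper quartile scaling.

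The *Nmrk2* locus (chr10:81198170-81202051, minus strand) lies inside the antisense gene *Atcayos* (chr10:81194609-81210877, plus strand), and 270 of the 1854 merged exon bases of *Nmrk2* (14.6%) are also exon of *Atcayos*. *Atcayos* ran from 30.1 to 53.9 CPM in Ctrl hearts and from 39.5 to 433 CPM in Doxo hearts, 5.78-fold higher (log2 2.53, SE 0.241, adjusted p = 8.76e-11). Of the 13 Doxo hearts, 12 were above all Ctrl hearts. Whether the authors' counting used strand is not given in the sources used here, so reads of this shared stretch cannot be told apart between the genes, and the part of *Atcayos* in the *Nmrk2* counts was not tested. The plot of both genes by heart shows that the Doxo hearts highest in 1 gene were also high in the other.

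**Figure D2:**
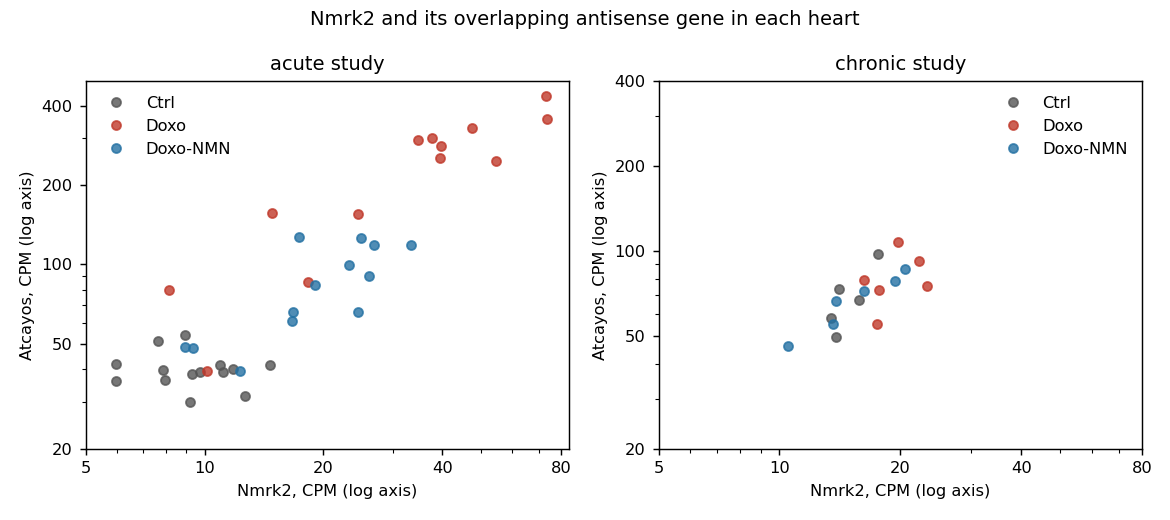
*Nmrk2* (x) against *Atcayos* (y), both in CPM on log axes, 1 point per heart and coloured by group, in the acute (40 hearts) and chronic (17 hearts) studies. Acute Doxo hearts extend to 73.7 CPM of *Nmrk2* and 433 CPM of *Atcayos*, acute Ctrl hearts reach at most 14.6 and 53.9 CPM, and the chronic groups overlap.

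Of the adenylyl transferases, *Nmnat1* fell and *Nmnat3* did not pass. *Nmnat1* was at 18.6, 23.7 and 25.9 CPM in the lowest, median and highest Ctrl heart and at 7.24, 12.6 and 28.96 CPM in Doxo hearts. The highest Doxo value was again replicate 6, and 9 of the 13 Doxo hearts lay below all Ctrl hearts. The log2 fold change was −0.65 (SE 0.132, adjusted p = 4.96e-05), and −0.77 without replicate 6. *Nmnat3* was at 17.2 ± 1.66 CPM in Ctrl and 19.0 ± 2.76 in Doxo hearts (log2 0.14, SE 0.0672, adjusted p = 0.0574).

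In the Preiss-Handler route, *Nadsyn1* fell. Its lowest, median and highest values were 3.61, 4.23 and 5.06 CPM in Ctrl and 2.29, 3.09 and 4.59 CPM in Doxo hearts, and 9 of 13 Doxo hearts lay below all Ctrl hearts. The log2 fold change was −0.36 (SE 0.0833, adjusted p = 0.000213). *Naprt*, the entry enzyme of the same route, was at 11.6 ± 1.28 CPM in Ctrl and 10.4 ± 1.63 in Doxo hearts (log2 −0.15, adjusted p = 0.0811). *Naprt* and *Eef1d* lie on the same strand and share 277 exon bases (11.8% of *Naprt*), whose reads cannot be told apart, and *Eef1d* was slightly higher with Doxo (log2 0.18, adjusted p = 0.0283).

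The NAD kinases moved apart. Mitochondrial *Nadk2* ran from 76.0 through 82.0 to 92.6 CPM in Ctrl and from 79.1 through 111 to 143 CPM in Doxo hearts, with 10 of 13 Doxo hearts above all Ctrl hearts. It rose by 0.38 on the log2 scale (SE 0.0727, adjusted p = 1.67e-05). Cytosolic *Nadk* was at 34.0 ± 1.95 CPM in Ctrl and 30.7 ± 3.10 in Doxo hearts, with 6 of 13 Doxo hearts below all Ctrl hearts. Its log2 fold change was −0.15 (SE 0.0475, adjusted p = 0.00545), and it did not pass within the hearts rich in atrial markers described below (−0.098, adjusted p = 0.205).

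The second comparison, acute Doxo-NMN vs. Doxo, asked how these genes differed when Doxo mice also received NMN, which is the product of *Nampt* and the substrate of the adenylyl transferases. Of the 9 genes, 3 were higher with NMN (*Nadsyn1*, *Nmnat1*, *Naprt*), 3 were lower (*Nmrk2*, *Nampt*, *Nadk2*) and 3 did not pass, while the rule called 53% of all tested genes. With a fold change of at least 1.5, only *Nmrk2* and *Nadsyn1* passed, 2 of the 9 against 17.1% of all genes. This comparison shares its Doxo hearts with the first, so the values are given side by side and their directions are not counted as separate evidence.

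*Nadsyn1* had the clearest separation. Its 13 Doxo-NMN hearts ran from 4.86 through a median of 5.28 to 6.03 CPM, all above the highest Doxo heart (4.59 CPM). Groups that did not overlap were found for 8 of 14240 tested genes (0.0562%), counted after the *Nadsyn1* values were seen. *Nadsyn1* was 1.60-fold higher than in Doxo hearts (log2 0.67, SE 0.0847, adjusted p = 3.78e-07), and the log2 difference was 0.71 without Doxo replicate 6. The Doxo-NMN hearts were also closer together, with a coefficient of variation of 7.33% against 21.5% in Doxo and 10.4% in Ctrl.

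*Nmnat1* was at 12.9, 22.6 and 25.7 CPM in the lowest, median and highest Doxo-NMN heart, and all 13 lay above the Doxo median of 12.6 CPM. The lowest was replicate 10, the Doxo-NMN heart with the highest position (0.909) on the line from Ctrl to Doxo. *Nmnat1* was higher than in Doxo hearts by a log2 difference of 0.55 (SE 0.134, adjusted p = 0.000854). *Naprt*, at 12.3 ± 1.76 CPM, was higher by 0.24 (SE 0.0793, adjusted p = 0.00947).

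*Nampt* ran from 238 through 311 to 525 CPM in Doxo-NMN hearts, and 12 of 13 lay below the Doxo median of 422 CPM. The exception was replicate 10, at 525 CPM, above all Doxo hearts. *Nampt* was lower than in Doxo hearts (log2 −0.42, SE 0.107, adjusted p = 0.0012). *Nmrk2* was at 8.90, 19.0 and 33.4 CPM, with all 13 hearts below the Doxo median of 37.6 CPM and none below the lowest Doxo heart. Its log2 difference was −0.88 (SE 0.252, adjusted p = 0.00368), and *Atcayos* was lower too (log2 −1.46, adjusted p = 7.49e-06). *Nadk2*, at 92.4 ± 10.5 CPM, was lower by a log2 difference of −0.25 (SE 0.0741, adjusted p = 0.00515). *Nmrk1* (log2 −0.022), *Nmnat3* (0.070) and *Nadk* (0.0047) did not pass, with adjusted p from 0.394 to 0.944. The map of hearts against the Ctrl mean shows how evenly each gene moved within a group.

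**Figure D3:**
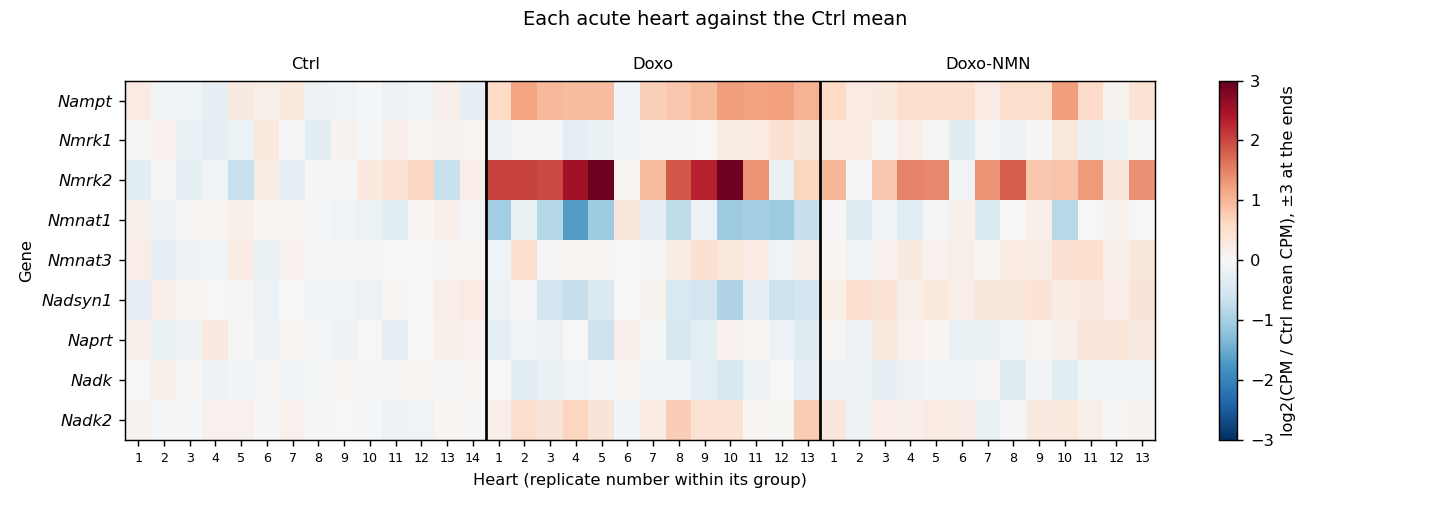
Log2 ratio of CPM to the mean Ctrl CPM for the 9 genes (rows) in each of 40 acute hearts (columns, by group and replicate number), red above and blue below the Ctrl mean. Most Doxo columns are red for *Nampt*, *Nmrk2* and *Nadk2* and blue for *Nmnat1* and *Nadsyn1*, with replicate 6 pale like Ctrl, and in Doxo-NMN columns *Nadsyn1* is above the Ctrl mean in every heart.

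The third comparison, acute Doxo-NMN vs. Ctrl, asked which of these genes differed from vehicle, and shares groups with both others. Of the 9, 4 were higher (*Nmrk2*, *Nampt*, *Nadsyn1*, *Nmnat3*), 1 was lower (*Nadk*) and 4 did not pass, against 26% of all tested genes called. At least 1.5-fold, *Nmrk2* alone of the 9 passed, against 7.11% of all genes. *Nmrk2* was 2.09-fold higher (log2 1.06, SE 0.250, adjusted p = 0.00173), with 10 of 13 hearts above all Ctrl hearts, and *Nampt* 1.43-fold higher (log2 0.52, SE 0.105, adjusted p = 0.000385), also with 10 of 13 hearts above all Ctrl hearts.

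*Nadsyn1* was below Ctrl with Doxo alone and above Ctrl with Doxo and NMN. All 13 Doxo-NMN hearts exceeded the Ctrl median of 4.23 CPM and 8 exceeded the highest Ctrl heart (log2 0.31, SE 0.0824, adjusted p = 0.00508). It did not pass within the hearts poor (0.31, adjusted p = 0.115) or rich (0.34, adjusted p = 0.104) in atrial markers described below, and passed with the atrial markers as a covariate (0.34, adjusted p = 0.00286). *Nmnat3* was higher at 19.96 ± 2.37 CPM (log2 0.21, adjusted p = 0.0167), and *Nadk* lower at 30.8 ± 2.38 CPM (log2 −0.15, adjusted p = 0.0208). *Nmnat1* (log2 −0.10, SE 0.131, adjusted p = 0.608), *Nadk2* (0.14, SE 0.0727, adjusted p = 0.162), *Naprt* (0.092, adjusted p = 0.401) and *Nmrk1* (0.032, adjusted p = 0.805) did not pass, which does not show that they equalled Ctrl.

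Markers of other tissue and cells moved with the acute groups. The 5 atrial markers summed to 5.86 to 4034 CPM in Ctrl (median 1929), 6.22 to 1677 in Doxo (median 27.1) and 3.18 to 3048 in Doxo-NMN hearts (median 14.7). Within the hearts under 100 CPM of the atrial light chain *Myl4* (6 Ctrl, 8 Doxo, 9 Doxo-NMN), the log2 fold change for Doxo vs. Ctrl was 2.27 for *Nmrk2* (adjusted p = 0.000152), −0.67 for *Nmnat1* (adjusted p = 0.0101), −0.40 for *Nadsyn1* (adjusted p = 0.0105), 0.44 for *Nadk2* (adjusted p = 0.000953) and 0.73 for *Nampt* (adjusted p = 0.000855). The NMN effect there was 0.70 for *Nadsyn1* (adjusted p = 0.000619), but *Nampt* no longer passed (−0.32, adjusted p = 0.0707), so that 5 of 9 genes passed, against 39.1% of all genes. Within the hearts of 100 CPM of *Myl4* or more, 3 of 9 genes passed for Doxo-NMN vs. Doxo, against 39.3% of all genes: *Nampt* (−0.65, adjusted p = 0.000596), *Nmnat1* (0.52, adjusted p = 0.00486) and *Nadsyn1* (0.64, adjusted p = 0.00245). *Nmrk2* (−0.42, adjusted p = 0.335), *Naprt* (0.13, adjusted p = 0.402) and *Nadk2* (−0.18, adjusted p = 0.103) no longer did. For Doxo-NMN vs. Ctrl, 5 of 9 genes passed with all hearts and 3 with an atrial covariate, against 27.5% of all genes, where *Nmnat3* (0.14, adjusted p = 0.0758) and *Nadk* (−0.13, adjusted p = 0.0506) were lost. Only *Nmrk2* passed within the low *Myl4* hearts (1.18, adjusted p = 0.0453), against 7.88% of all genes, and *Nampt* did not (0.41, adjusted p = 0.0983). Only *Nampt* passed within the high *Myl4* hearts (0.48, adjusted p = 0.00484), against 9.12% of all genes, and *Nmrk2* did not (0.94, adjusted p = 0.056).

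Neutrophil markers (5 genes) summed to 1.59 to 4.99 CPM in Ctrl (median 2.43) and 2.69 to 259 in Doxo hearts (median 15.1). In Doxo-NMN hearts they summed to 4.66 to 28.8 CPM (median 9.37). The Doxo value of 259 CPM was replicate 13. Medians in this order of groups were 0.361, 5.44 and 2.45 CPM for *S100a8* and 0.780, 6.09 and 4.03 CPM for *S100a9*. They were 0.163, 1.83 and 1.11 CPM for *Retnlg*. *Csf3r* did not follow the sum, at 1.18, 1.47 and 1.81 CPM. *Ly6g* was at 0 in every Ctrl heart, and its Doxo median (0.052 CPM) was below the floor. Red cell markers (5 genes) summed to 437 to 4311 CPM in Ctrl (median 1114), 1.19 to 338 in Doxo (median 2.30) and 0.209 to 2.81 in Doxo-NMN hearts (median 1.42). The Doxo value of 338 CPM was replicate 6, and the other 12 Doxo hearts reached at most 3.85 CPM. Macrophage markers (4 genes) had a median sum of 96.6 CPM in Ctrl, 62.2 in Doxo and 78.6 in Doxo-NMN hearts, with *Csf1r* at medians of 43.1, 18.2 and 25.9 CPM. The others did not all move alike: medians were 11.5, 4.40 and 9.27 CPM for *Adgre1* and 37.3, 32.8 and 37.2 CPM for *C1qa*. *Cd68* went the other way, at 5.68, 8.14 and 6.21 CPM. The 4 fibroblast markers had median sums of 702, 734 and 499.9 CPM in Ctrl, Doxo and Doxo-NMN hearts, within which the collagen gene *Col1a1* had medians of 111, 10.97 and 46.8 CPM. Medians of the others were 532, 640 and 406 CPM for *Dcn*, 50.4, 49.1 and 36.9 CPM for *Pdgfra*, and 6.48, 7.10 and 4.29 CPM for *Tcf21*. Endothelial markers (4 genes) had median sums of 606, 605 and 490.5 CPM, but did not move alike. Medians were 170, 82.6 and 97.6 CPM for *Kdr*, and 190, 225 and 166 CPM for *Pecam1*. *Cdh5* was at 140, 149 and 121 CPM, and *Tie1* at 105, 99.0 and 84.9 CPM. The part of these cells in the values of the 9 genes was not tested.

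In the chronic study, 0 of the 9 genes passed in any comparison (edgeR, adjusted over 14960 genes), where all genes passed at 0.0602% in Doxo vs. Ctrl, 0% in Doxo-NMN vs. Doxo and 0.0401% in Doxo-NMN vs. Ctrl. At an unadjusted p under 0.05, 4 of the 9 passed in Doxo vs. Ctrl (7.85% of all genes), 1 in Doxo-NMN vs. Doxo (2.95%) and 0 in Doxo-NMN vs. Ctrl (4.73%), and DESeq2 also called 0 in each after adjustment. *Nmrk2* was at 17.6, 13.4, 15.8, 14.04 and 13.8 CPM in the 5 Ctrl hearts, at 16.3, 18.7 and 23.3 CPM in the lowest, median and highest Doxo heart, and at 10.5, 15.03 and 20.5 CPM in Doxo-NMN hearts. Doxo hearts lay high and overlapped both other groups. The log2 difference was 0.38 for Doxo vs. Ctrl (SE 0.148, unadjusted p = 0.0185, adjusted p = 0.581 by edgeR) and −0.31 for Doxo-NMN vs. Doxo (SE 0.140, unadjusted p = 0.0394, adjusted p = 0.999 by edgeR).

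*Nmnat1* (log2 −0.21, SE 0.0918), *Naprt* (−0.24, SE 0.1002) and *Nadk* (−0.20, SE 0.0809) were the other 3 genes with an unadjusted p under 0.05 for Doxo vs. Ctrl, and their adjusted p were 0.612, 0.602 and 0.584 by edgeR. Without Ctrl replicate 1 and Doxo replicate 2, *Nmnat1* was at −0.23, *Naprt* at −0.13 and *Nadk* at −0.13, with adjusted p of 0.651, 0.779 and 0.728, and *Nmrk2* was at 0.44 (adjusted p = 0.594, edgeR). Leaving out Ctrl replicate 1 alone took *Naprt* to −0.16. *Nmnat1* was at 21.4 ± 1.46 CPM in Ctrl, 18.5 ± 1.14 in Doxo and 20.3 ± 2.57 in Doxo-NMN hearts (SD, n = 5, 6 and 6). *Nadsyn1* was at 6.41 ± 1.09 CPM in Ctrl, 5.85 ± 0.995 in Doxo and 6.27 ± 0.252 in Doxo-NMN hearts, within the spread of the hearts.

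Chronic values of several genes turned on 2 libraries. *Nampt* was at 90.7, 202, 178, 155 and 159 CPM in the 5 Ctrl hearts, the first being replicate 1, and Doxo replicate 2 was at 308 CPM, while the other 5 Doxo hearts ran from 136 to 154 CPM. The log2 difference for Doxo vs. Ctrl was 0.14 (SE 0.199) with all hearts and −0.25 without these 2 libraries (adjusted p = 0.880 and 0.594 by edgeR). *Nadk2* was at 22.001 CPM in Ctrl replicate 1 and at 50.997 to 61.2 CPM in the other 4 Ctrl hearts, and its log2 difference went from 0.14 to −0.20. Each of the 9 genes in Ctrl replicate 1 lay outside the range of the other 4 Ctrl hearts: *Nampt*, *Nmnat1*, *Nmnat3* and *Nadk2* below it, and *Nmrk1*, *Nmrk2*, *Nadsyn1*, *Naprt* and *Nadk* above it. That heart also had the highest sum of 6 skeletal muscle markers (2009 CPM, against a group median of 697). These markers were not confined to it: all but *Mylk4* were higher in every chronic heart than in any acute heart. *Myh4* ran from 178 to 1127 CPM in chronic hearts and reached at most 0.0733 CPM in acute hearts. The part of skeletal muscle in the chronic values, among them those of muscle-enriched *Nmrk2*, was not tested. The plot of chronic hearts shows both libraries.

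**Figure D4:**
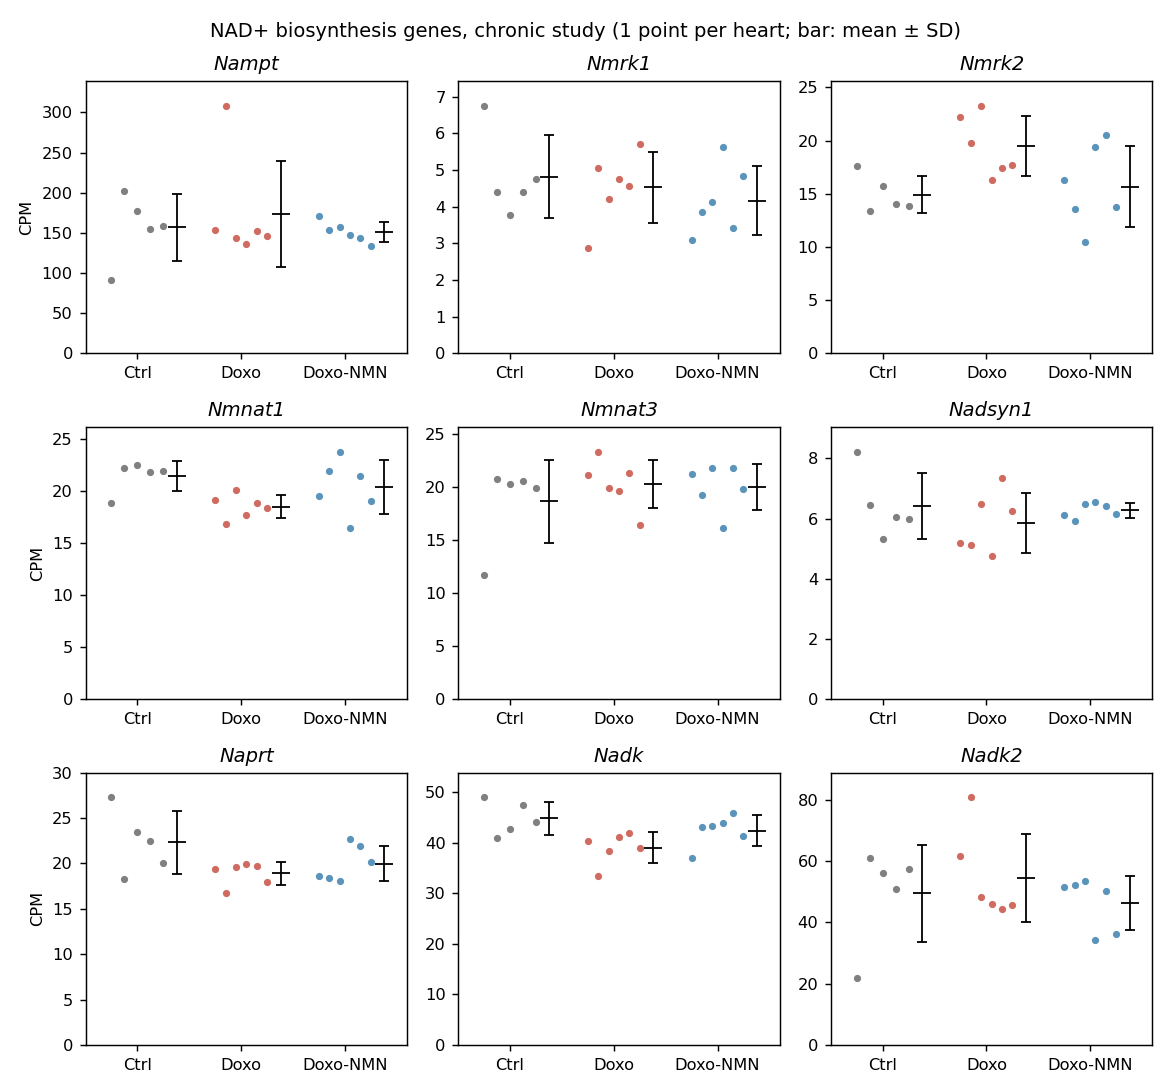
CPM of the 9 genes (linear axes from 0) in each chronic heart, 1 point per heart in replicate order, with the group mean ± SD beside the points (Ctrl n = 5, Doxo n = 6, Doxo-NMN n = 6). The groups overlap in most panels, the first Ctrl point is apart in *Nmnat3* (11.7 CPM) and *Nadk2* (22.001 CPM), and the second Doxo point is apart in *Nampt* (308 CPM).

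The effects in both studies were compared by an edgeR interaction test over 15152 genes, as differences of log2 fold changes (acute minus chronic). The Doxo effect differed for 2 of the 9 genes, *Nmrk2* (1.56, SE 0.411, adjusted p = 0.00619) and *Nampt* (0.79, SE 0.216, adjusted p = 0.00773), against 23.6% of all genes. The NMN effect differed for 1 of the 9, *Nadsyn1* (0.58, SE 0.148, adjusted p = 0.0197), against 6.09% of all genes. The other differences did not pass, among them *Nmnat1* for Doxo (−0.43, SE 0.225, adjusted p = 0.153) and for NMN (0.42, SE 0.218, adjusted p = 0.214). Without acute Doxo replicate 6, *Nmnat1* passed in both (adjusted p = 0.0263 and 0.0424), giving 3 of the 9 genes for Doxo (31.8% of all genes) and 2 for NMN (17.8%). Without the chronic libraries that stand apart, *Nadk2* passed for Doxo in addition to *Nampt* and *Nmrk2* (0.58, SE 0.155, adjusted p = 0.00553), against 26.9% of all genes, and *Nadsyn1* alone passed for NMN (0.62, SE 0.148, adjusted p = 0.0102), against 12.8%. Dose schedule, age, day of collection, NMN route, laboratory and the level of skeletal muscle markers all differ between the studies and cannot be told apart here. The plot of log2 fold changes sets both studies side by side.

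**Figure D5:**
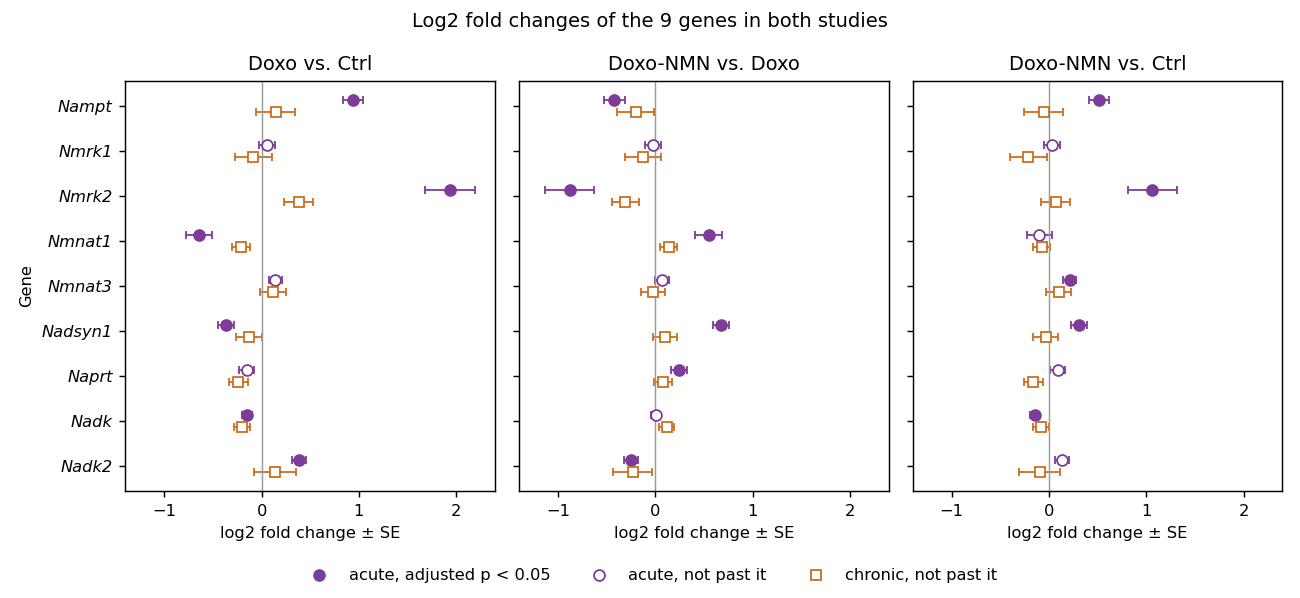
Log2 fold change ± SE (x) of the 9 genes (y) in the 3 comparisons, for the acute (circles) and chronic (squares) study, filled where the adjusted p was under 0.05 (edgeR). Acute *Nmrk2* lies at 1.94 for Doxo vs. Ctrl and chronic *Nmrk2* at 0.38, and no chronic symbol is filled.

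Other genes of NAD+ metabolism were taken as 4 lists. Their acute counts are to be read beside the share of all tested genes that the rule called. That share was 68.1% in Doxo vs. Ctrl, 53% in Doxo-NMN vs. Doxo and 26% in Doxo-NMN vs. Ctrl. Of the 7 tested genes of precursor uptake and handling, 1 rose and 2 fell with acute Doxo. These were *Aox1*, an aldehyde oxidase that converts methylated nicotinamide into pyridones (log2 2.13, adjusted p = 3.88e-10), and the nucleoside transporters *Slc29a1* (−0.94, adjusted p = 3.49e-08) and *Slc29a2* (−0.79, adjusted p = 0.0012). *Aox1* ran from 30.1 to 43.1 CPM in Ctrl, 40.5 to 385 in Doxo and 41.95 to 154 in Doxo-NMN hearts. With NMN, 2 of the 7 were higher than in Doxo hearts (*Slc29a1*, 0.72; *Slc29a2*, 0.65) and 2 were lower (*Aox1*, −1.39; *Nt5e*, an ectonucleotidase, −0.24). Against Ctrl, *Aox1* stayed higher (0.74, adjusted p = 0.0098) and *Nt5e* was lower (−0.30, adjusted p = 0.0195).

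Of the 12 tested NAD+ consumers, 4 rose and 5 fell with acute Doxo, where 68.1% of all tested genes were called. The largest changes were in the nuclear deacetylase *Sirt1* (log2 0.97, adjusted p = 2.75e-08), the mitochondrial deacetylase *Sirt3* (−0.91, adjusted p = 2.41e-07), the NAD+ glycohydrolase *Cd38* (0.62, adjusted p = 0.000514) and mitochondrial *Sirt4* (−0.57, adjusted p = 5.32e-06). With NMN, 5 of the 12 were higher and 2 lower than in Doxo hearts, with *Cd38* at −0.80, *Sirt1* at −0.78, *Sirt3* at 0.71 and *Sirt5* at 0.55. Against Ctrl, 2 were higher (*Sirt7*, 0.22; *Sirt2*, 0.20) and 0 lower. Across the 12, the median log2 fold change for Doxo vs. Ctrl was 0.035, near the −0.0016 of all genes.

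Of the 7 tested genes of NAD(P)(H) repair, turnover and transport, 2 rose and 3 fell with acute Doxo, again beside 68.1% of all tested genes. They included the transhydrogenase *Nnt* (log2 0.56, adjusted p = 1.73e-06), the NADH hydrolase *Nudt13* (−0.27), the repair enzyme *Naxd* (0.24) and the mitochondrial NAD+ carrier *Slc25a51* (−0.19). With NMN, *Nudt13* (0.36) and the epimerase *Naxe* (0.16) were higher than in Doxo hearts, and *Nnt* alone of the 7 remained above Ctrl (0.40, adjusted p = 0.00151). The remaining adenylyl transferase *Nmnat2*, named after its values were seen, was at 0.484 ± 0.277 CPM in acute Ctrl hearts, far below *Nmnat1* and *Nmnat3*. Only 4 of the 9 genes of the de novo route from tryptophan had enough counts to be tested, and 1 of them fell with Doxo, *Kmo* (log2 −0.996, adjusted p = 0.00181), from 0.617 ± 0.227 to 0.309 ± 0.188 CPM. *Kmo* was also lower than Ctrl with NMN (−0.90, adjusted p = 0.0132). Its counts were low, at 14 to 47 in Ctrl, 2 to 28 in Doxo and 6 to 27 in Doxo-NMN hearts. The lowest Doxo heart was below the floor of 3 counts. In the chronic study 0 of the 4 to 12 tested genes of each list passed. At an unadjusted p under 0.05 there were 2 genes of precursor handling in Doxo vs. Ctrl (7.85% of all genes) and 1 in Doxo-NMN vs. Doxo (2.95%). In Doxo-NMN vs. Ctrl, 1 gene of precursor handling, 1 repair gene and 1 consumer were under it (4.73% of all genes).

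Genes whose level followed a member from heart to heart were ranked by Pearson's r of log2 CPM after the group mean was removed, over the 40 acute hearts, with the same r over the 17 chronic hearts. These values are descriptive, carry no test, and share each heart's library and tissue make-up. *Nmnat1* had the closest neighbours: *Opa3* (r = 0.956 acute, 0.835 chronic), *Fam160a1* (0.946 and 0.805) and *Tmem25* (0.940 and 0.492). *Nampt* was followed by *Cutc* (0.901 and 0.825), the glutamine synthetase gene *Glul* (0.873 and 0.817) and the lipoprotein lipase gene *Lpl* (0.837 and 0.431). The chronic r of these neighbours of *Nampt* rested on Ctrl replicate 1 and Doxo replicate 2: without them it was −0.038 for *Cutc*, −0.10 for *Glul* and −0.017 for *Lpl*. For *Opa3*, *Fam160a1* and *Tmem25* the chronic r without both hearts was 0.790, 0.829 and 0.646. For *Atcay*, *Atcayos* and *Rad54l*, named next, it was 0.716, 0.758 and 0.169. *Nmrk2* was followed by genes of its own locus, *Atcay* (0.918 and 0.733), which lies upstream of it on the same strand and overlaps *Atcayos* by 6370 bases, and *Atcayos* itself (0.809 and 0.723), then by *Rad54l* (0.723 and 0.297).

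*Nadk2* was followed by *Acadl* (0.836 and 0.867), *Rab12* (0.809 and 0.920) and *Acadvl* (0.807 and 0.868). Of these, *Acadl* and *Acadvl* encode acyl-CoA dehydrogenases of mitochondrial fatty acid oxidation. Without the same 2 chronic hearts, the chronic r was 0.530 for *Acadl*, 0.829 for *Rab12* and 0.782 for *Acadvl*. *Nmnat3* was followed by *Acss1* (0.719 and 0.857), *Ccdc12* (0.708 and −0.234) and *Usp5* (0.707 and 0.784). *Nadk* was followed by *Loxl1* (0.687 and 0.608), *Cxcl16* (0.678 and 0.709) and *Fam78b* (0.678 and 0.850). Without both hearts the chronic r was 0.663, 0.090 and 0.667 for *Acss1*, *Ccdc12* and *Usp5*. For *Loxl1*, *Cxcl16* and *Fam78b* it was 0.300, 0.389 and 0.755. The neighbours of *Nadsyn1* had lower r in the chronic hearts: *Rbbp9* (0.752 and 0.226), *Fgd2* (0.732 and 0.252) and *Zfp882* (0.727 and 0.367). Those of *Naprt* were *Tmem201* (0.730 and −0.648), *Mpst* (0.704 and −0.204) and *Spr* (0.698 and 0.147). *Nmrk1* had the weakest, *Myo9a* (0.578 and 0.635), *Mfap1a* (0.567 and 0.155) and *Fbxo2* (0.560, not tested in the chronic study). Without both hearts the chronic r was 0.166, −0.314 and 0.019 for the neighbours of *Nadsyn1*, in the order given. For those of *Naprt* it was −0.437, 0.367 and 0.278, and for *Myo9a* and *Mfap1a* 0.504 and 0.193. Among the members themselves, *Nampt* and *Nadk2* varied together (r = 0.454 acute, 0.858 chronic), *Nmnat3* and *Nadk2* likewise (0.420 and 0.881), and *Nampt* and *Nadk* oppositely (−0.519 and −0.774). Without the 2 chronic hearts these chronic values were 0.561, 0.604 and −0.587.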

How the data were processed

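Poly(A) RNA of 57 mouse hearts was sequenced. According to the study's methods and the submitters' processing notes, the authors mapped single-end reads to mm10 with STAR and counted them with featureCounts 2.0.0 (the notes give STAR 2.7.3a). The deposited values are the authors' raw counts per gene, neither normalized nor filtered. The gene annotation and strand setting are not given in the sources used here. Of acute counts from 1 to 20, 70.9% to 78.6% per heart were even numbers, against 39.0% to 41.9% in chronic hearts, and why is not given in the sources used here, so what 1 acute count stands for is uncertain. With acute counts divided by 2, 6, 6 and 5 members were called, as with the counts as deposited, and 2 and 1 in the differences between studies.

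Depth was 32409622 to 52102850 counts per acute and 17769886 to 23862287 per chronic heart. Groups and replicate numbers come from the labels. Each study was fitted in R 4.3.3 with edgeR 4.0.16 (filterByExpr, TMM, quasi-likelihood F-test, 3 groups together), and p-values were adjusted over all tested genes by Benjamini-Hochberg. SE is the absolute log2 fold change divided by the square root of F. Genes were called at an adjusted p under 0.05, in the acute study also with a fold of 1.5. Log2 CPM used a prior count of 2. The fits were run on simulated counts in which few genes changed, each by more than most effects reported here. That does not test small effects, or data in which most genes change. Positions and exon lengths come from GENCODE M21 (GRCm38), promoters from RefSeq.

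The genes named are the 9 members, up to 4 passing genes per list with the largest change, and 3 neighbours per member. Members and lists were chosen with earlier results of these data known. Alternatives were DESeq2 1.42.0, limma 3.58.1 voom, other scalings and filters, 2-group and robust fits, a replicate block, atrial splits, and leaving out each heart. The joint omission of 2 chronic hearts was added after seeing the data.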

Additional observations from a re-analysis of the deposited data

Results flagged for a closer look

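In the chronic study, each of the 9 genes was checked in each of the 3 groups for a heart far from the rest (27 checks, Dixon's test at 95%, in which chance marks about 1 in 20 groups), and 4 values were marked. In Ctrl replicate 1, *Nmnat1* was at 18.8 CPM, *Nmnat3* at 11.7 CPM and *Nadk2* at 22.001 CPM, all below the other 4 Ctrl hearts. In Doxo replicate 2, *Nampt* was at 308 CPM, above the other 5 Doxo hearts. Acute groups hold more than 10 hearts and were not checked this way.

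The log2 effects that differed between the studies by the interaction test (acute minus chronic, edgeR) were that of Doxo on *Nmrk2* (1.56, adjusted p = 0.00619) and *Nampt* (0.79, adjusted p = 0.00773), and that of NMN on *Nadsyn1* (0.58, adjusted p = 0.0197).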

How the results depend on the processing

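Of 86 counts of members called under settings other than leaving out 1 heart, 75 stayed within 1.5 times. They include chronic counts of 0, in comparisons where few or no genes were called under any setting, so these had little room to move. Equal counts can also hold different members. Adding a 1.5-fold cutoff gave 3, 2 and 1 members in acute hearts for Doxo vs. Ctrl, the NMN comparison with Doxo and that with Ctrl. For Doxo-NMN vs. Doxo, 3 passed within hearts of 100 CPM of *Myl4* or more, and for Doxo-NMN vs. Ctrl, 3 passed with the atrial covariate and 1 within either *Myl4* class, with fewer hearts in each. In the chronic study an unadjusted p gave 4 in Doxo vs. Ctrl (7.85% of all genes) and 1 in Doxo-NMN vs. Doxo (2.95%). For the differences between studies, limma voom gave 5 (Doxo; 46.8% of all genes) and 3 (NMN; 35.6%), and leaving out acute Doxo replicate 6 gave 3 and 2 (31.8% and 17.8%); the cause was not tested. Leaving out each heart in turn gave 6 to 8, 6 and 5 members in the acute and 0 in each chronic comparison.

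Replicate numbers were shared across groups, but r was over 0.1 in 3, 7 and 8 of 13 same-numbered acute pairs and in 0 of 5, 2 of 6 and 2 of 5 chronic pairs, not in every pair, so they were not treated as pairs. With the replicate block the counts were 6, 6, 5 and 0, 0, 0, and only chronic *Nampt* in Doxo-NMN vs. Ctrl changed sign (0.022).

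Differences that had not passed changed sign under some settings; the cause was not tested. In acute hearts these were *Nmrk1*, Doxo vs. Ctrl (−0.0062 upper quartile, −0.048 in low *Myl4* hearts), Doxo-NMN vs. Doxo (0.026 upper quartile; −0.049 to 0.018 leaving out 1 heart) and Doxo-NMN vs. Ctrl (−0.066 in low *Myl4* hearts), and *Nadk*, Doxo-NMN vs. Doxo (−0.0030 DESeq2, −0.0022 RLE, −0.057 in high *Myl4* hearts; −0.014 to 0.023 leaving out 1 heart). In chronic Doxo vs. Ctrl, limma voom, omission of both hearts that stand apart, and the range leaving out 1 heart gave −0.16, −0.25 and −0.098 to 0.25 for *Nampt*, 0.086, 0.035 and −0.16 to 0.066 for *Nmrk1*, −0.045, −0.054 and −0.0086 to 0.18 for *Nmnat3*, −0.16, −0.20 and −0.052 to 0.23 for *Nadk2*, and voom and both hearts 0.072 and 0.012 for *Nadsyn1*. In chronic Doxo-NMN vs. Doxo, they gave 0.021, 0.040 and −0.26 to 0.040 for *Nampt*, and 0.081, 0.020 and −0.080 to 0.030 for *Nmnat3* (0.036 with the atrial covariate). In chronic Doxo-NMN vs. Ctrl, *Nmrk2* was −0.0096 with voom, −0.10 with the atrial covariate and −0.021 to 0.16 leaving out 1 heart, *Nadsyn1* 0.095 with voom, 0.069 without both hearts and −0.092 to 0.068, *Nmnat3* −0.033 without both hearts and −0.034 to 0.15, and *Nampt* −0.21 to 0.049. With voom the difference between studies was −0.036 for *Nadk* (Doxo) and −0.028 for *Nmnat3* (NMN), and without both chronic hearts that stand apart it was −0.029 for *Naprt* and −0.025 for *Nadk* (Doxo). The lowest count of a member in any heart was 52.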
